A study of Mus musculus with 2 samples.

Results

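The genes described here are 36 genes of mitosis, taken as a fixed list of 36 of the 31053 genes counted. The list holds the cyclins and kinases that start mitosis, the proteins of chromosomes, centromeres and spindle, and those that part the daughter cells. They were measured by single-cell RNA sequencing in 2 libraries of ear epidermal cells sorted as CD45+, EpCAM− and MHC-II−, 1 library per treatment. The mice were female, wild type, of strain FVB/NJ and 8 weeks old. One library followed injection of isotype control antibody into the skin, the other followed antibody to Skint1 in the same way, and the tissue was taken 7 d later in both. The labels do not give the number of mice per library. The study's legend for these data sets n at 1 per group, and its methods count n in single mice unless a legend says otherwise. Skint1 is a keratinocyte protein needed for the development of dendritic epidermal T cells (DETCs), and the study asked what its blockade does to the resident lymphocytes of adult skin. The isotype library held 27272211 UMIs (unique molecular identifiers, 1 for each captured molecule of mRNA) and the anti-Skint1 library 32450957.

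Genes of mitosis are transcribed late in the cell cycle and are nearly silent in resting cells. Their transcription is held back in resting cells by the DREAM complex and switched on by B-Myb and FoxM1, which reach promoters through the MuvB core. DETCs are γδ T cells that seed the mouse epidermis before birth and then maintain themselves there by slow division, without replacement from the blood.

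Cells were barcodes with at least 500 genes and at most 12% mitochondrial UMIs, with no upper limit on genes, which gave 4709 cells in the isotype library and 6425 in the anti-Skint1 library. From here on, where a pair of values is given, the isotype library comes first. DETCs, which held at least 3 UMIs of Trdc and 3 of the Cd3 genes and none of Trac, Cd4, Cd8a or Cd8b1, were 3856 cells (81.9%) and 5232 cells (81.4%). αβ T cells, with Trac and no Trdv4, were 214 and 229. The last rule, meant for innate lymphoid cells (ILCs), took barcodes with at least 3 UMIs of Il7r, Rora and Gata3, at most 2 of the Cd3 genes and no Trdv4, and gave 134 and 220 barcodes. A further 514 and 758 cells fell in no class, and 9 and 14 barcodes met both the αβ T and the ILC rule. The libraries shared 8 barcode sequences among their cells, and 0 of these were mitotic by the rule given further on.

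DETCs held their defining markers, whereas the markers of the αβ T class were mixed. Trdv4, the δ chain variable gene of DETCs, was at 937 and 759.8 CPM in DETCs, where CPM is UMIs per 1000000 UMIs of the class, although the DETC rule did not use it. It was set to 0 in αβ T cells by their rule. Cd5, a T cell surface protein that no rule used, was at 79.2 and 74.3 CPM in αβ T cells and 0.338 and 0.140 CPM in DETCs. The β chain constant genes Trbc1 and Trbc2, which no rule used either, did not separate the classes in this way. Trbc1 was at 1223.5 and 995.5 CPM in αβ T cells and 1440 and 1232 CPM in DETCs. Trbc2 was at 1259 and 1066 CPM against 1069.5 and 964.9 CPM. Trdc, the δ chain constant gene, which the αβ T rule did not bar, was at 341 and 626 CPM in αβ T cells beside 544 and 462 CPM of Trac, the α chain constant gene. The dermal γδ T cell markers 5830411N06Rik and Il17a, the latter an interleukin gene, were at 103 and 60.2 CPM and 51.5 and 107 CPM in that class. The data went against the name of the ILC class. Over the whole class, the 7 Langerhans or myeloid markers summed to 1062 and 1050 CPM, beside 929.8 and 925.5 CPM for the 7 ILC markers. Cd74 was the most abundant of the former, at 571.5 and 553.5 CPM, against 14.7 and 20.1 CPM in DETCs. Of its barcodes, 46 of 134 and 88 of 220 were rich in keratin RNA, with at least 0.5% of their UMIs from Krt5, Krt14, Krt10, Krt1, Krt15 and Dsp. These keratin-rich barcodes held 68.8% and 75.8% of the UMIs of the class. Krt14, a keratin of basal keratinocytes, was at 8120.5 and 8608 CPM in them. Ptprc, which encodes the sorted protein CD45 and was chosen after its values were seen, was at 2.83 and 5.63 CPM in them and at 461 and 467 CPM in the other barcodes of the rule. They are therefore called barcodes of the ILC rule. The same keratin level was reached by 9 and 12 DETCs and by 0 and 0 αβ T cells.

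Mitosis genes were lower in DETCs of the anti-Skint1 library than in those of the isotype library. Summed over the 36 genes, DETCs held 1149 CPM (1133 to 1165) in the isotype library and 828 CPM (816 to 841) in the anti-Skint1 library. The log2 ratio, anti-Skint1 over isotype, was −0.47 (−0.50 to −0.44). Values in parentheses after a level, ratio or share are its 95% interval by exact methods (Poisson for levels, conditional binomial for ratios and Clopper-Pearson for shares), and they cover counting error only. There was no replicate check, since each treatment had 1 library, and treatment cannot be told apart from library. αβ T cells held 1962 CPM (1876 to 2049.9) and 1047 CPM (984 to 1112), a log2 ratio of −0.91 (−1.02 to −0.80), and so were also lower in the anti-Skint1 library. Barcodes of the ILC rule went the other way, with 615 CPM (576 to 656) and 809.9 CPM (776 to 845) and a log2 ratio of 0.40 (0.29 to 0.51). Cells of no class held 1087 CPM (1049 to 1126) and 832 CPM (803 to 863), and their log2 ratio of −0.38 (−0.46 to −0.31) had the sign of that in DETCs. Of these cells 15 and 33 were keratin-rich, with 1.47% and 22.0% of the mitosis UMIs of the group, and without them the levels were 1139 and 720.5 CPM. With at most 2500 genes per barcode, the limit of the study's methods, the ratio was −0.17 in DETCs and turned to 0.22 in αβ T cells and −0.61 under the ILC rule. The size of the difference in DETCs thus depended on the limit, and in the rarer classes its direction did. At a median of 4142.5 and 3652 UMIs per cell, 36.5% and 40.6% of DETCs held no UMI of any of the 36 genes. Such a cell may still hold this RNA, since not every molecule is captured.

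The mitosis UMIs were concentrated in a small set of cells. Because deep barcodes show more genes, each cell was thinned at random to 2000 UMIs, and a cell was called mitotic when at least 4 of the 36 genes were still seen. The name stands for this rule alone. Most such DETCs also showed genes of DNA replication, so that cells copying DNA cannot be told apart from cells in mitosis by it. Cells under 2000 UMIs, which were 134 and 202 DETCs, were left out. By this rule 148 of 3722 (3.98%, 3.37 to 4.66%) of DETCs were mitotic in the isotype library and 114 of 5030 (2.27%, 1.87 to 2.72%) in the anti-Skint1 library. The share was lower in the anti-Skint1 library, by a difference of −1.71 points (−2.48 to −0.975) with Newcombe's interval. Mitotic DETCs held 71.95% and 61.6% of the mitosis UMIs of DETCs. Before thinning, a mitotic DETC held UMIs of a median of 24 of the 36 genes in both libraries, and any other DETC a median of 1. The shares depended on the settings, as with at most 2500 genes per barcode they were 1.44% and 0.801%, and without thinning 6.74% and 4.24%. At the edge of the rule, 53 and 68 DETCs showed 3 of the genes after thinning and 20 and 14 showed 4.

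**Figure D1:**
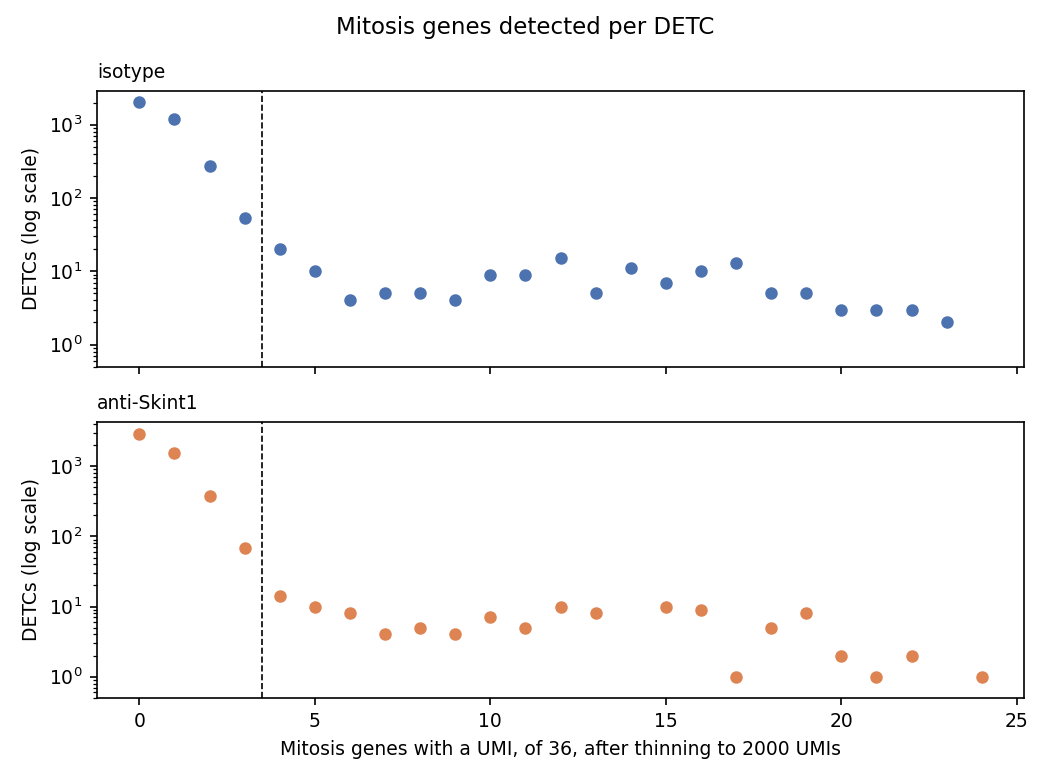
Number of DETCs (log axis) by the number of the 36 mitosis genes seen after thinning to 2000 UMIs, one point per number and library, with a dashed line at the minimum of 4 genes that defines a mitotic cell. To the right of the line lie 148 DETCs of the isotype library and 114 of the anti-Skint1 library.

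Mitotic cells were found in each class. Among αβ T cells 17 of 207 (8.21%, 4.86 to 12.8%) and 14 of 212 (6.60%, 3.66 to 10.8%) were mitotic. The share among αβ T cells was above that among DETCs by 4.24 points (1.14 to 8.82) in the isotype library and 4.34 points (1.67 to 8.53) in the anti-Skint1 library, with both intervals above 0. Between libraries, the αβ T share differed by −1.61 points (−6.86 to 3.54), an interval that held 0. Under the ILC rule 6 of 129 (4.65%, 1.73 to 9.85%) and 9 of 217 (4.15%, 1.91 to 7.73%) were mitotic. Of these barcodes, 3 of 6 and 8 of 9 were keratin-rich, and without the keratin-rich barcodes the shares were 3.61% (0.752 to 10.2%) and 0.775% (0.0196 to 4.24%). Among cells of no class 21 of 472 (4.45%, 2.77 to 6.72%) and 21 of 686 (3.06%, 1.91 to 4.64%) were mitotic.

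Mitotic DETCs held the DETC markers that the class rule did not use, at lower levels than the other DETCs. Trdv4 was at 677 and 485 CPM in mitotic and 956 and 775 CPM in other DETCs, and Klrk1, which encodes the receptor NKG2D, at 269 and 258 CPM against 435 and 414 CPM. The list of 6 DETC markers, 2 of which (Trdc and Cd3e) the rule had used, summed to 8942 and 8504 CPM in mitotic and 12334 and 12017 CPM in other DETCs, with Trdc the most abundant in the mitotic cells of both libraries and none at 0. The keratin RNA of mitotic DETCs lay nearly all in 1 barcode per library. The 6 keratinocyte markers summed to 454 and 986 CPM in mitotic and 172 and 182 CPM in other DETCs, with Krt14 the most abundant and Krt1 at 0 in the mitotic cells of the isotype library. Of the keratin UMIs of mitotic DETCs, 560 of 583 and 1003 of 1022 lay in the keratin-rich barcode of each library. Without keratin-rich barcodes the sum was lower in mitotic than in other DETCs, at 18.2 and 19.1 CPM against 30.8 and 37.3 CPM. The 7 Langerhans or myeloid markers summed to 32.7 and 364 CPM in mitotic DETCs, and in the anti-Skint1 library 322 of the 324 UMIs of Cd74 and H2-Aa, genes of antigen presentation, lay in 1 barcode. Mast cell markers were at 0 in DETCs of both libraries. Marked as likely doublets were 1 of 148 and 1 of 114 mitotic DETCs (0.676% and 0.877%), against 4.08% and 5.55% of other DETCs. The marks followed an assumed rate, which took 177 and 330 barcodes, whereas the doublet tool's own threshold took 2 and 0. Mitotic αβ T cells held Trdc at 96.8 and 526 CPM, beside 569 and 383 CPM of Trac.

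Gene by gene, each member was set against mitotic and other DETCs with the gene itself left out of the rule, so that at least 4 of the other 35 genes were seen. The choice of mitotic cells still fixed the direction, and nothing is read from it. In the isotype library 36 of the 36 genes and in the anti-Skint1 library 36 were over 1.5-fold higher in mitotic than in other DETCs, where 18.9% and 19.0% of all genes tested were so. None was over 1.5-fold lower, where 21.1% and 22.3% of all genes tested were. The median fold was 110.0 and 88.9. What varied was the size of the difference, from 3.62-fold for Cenpa to 779.7-fold for Hmmr in the isotype library and from 3.26-fold for Kif23 to 1089-fold for Kif2c in the anti-Skint1 library. The highest folds rested on few UMIs in other DETCs (5 of Hmmr in the isotype library and 1 of Kif2c in the anti-Skint1 library), so that no order is read from them.

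The cyclins, kinases and their partners start mitosis, and their 8 genes summed to 1837 and 1647 CPM in mitotic DETCs and 49.6 and 46.8 CPM in others. Cdk1, the kinase that drives entry into mitosis, was at 299.8 and 249.5 CPM in mitotic and 2.88 and 3.22 CPM in other DETCs. Its partners are the cyclins. Ccnb1, which encodes cyclin B1, was at 119.9 and 76.2 CPM in mitotic DETCs and 0.861 and 0.695 CPM in others. Ccnb2, for cyclin B2, was at 403 and 414 CPM against 1.97 and 0.892 CPM. Ccna2, for cyclin A2, was at 223 and 193 CPM against 1.35 and 1.34 CPM. Each of these cyclins was thus under 2 CPM outside mitotic cells. The kinases Plk1, of centrosomes and kinetochores, and Aurka, of centrosomes and the spindle, were at 54.5 and 42.4 CPM and 68.5 and 59.2 CPM in mitotic DETCs. Cdca3, a trigger of mitotic entry, was at 245 and 197 CPM there. Cks2, a small subunit that binds Cdk1, differed from the rest of its role, with 41.0 and 38.5 CPM in other DETCs beside 429 and 419 CPM in mitotic ones.

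Genes of the chromosome itself followed. Mki67, whose protein coats mitotic chromosomes, was at 856 and 883 CPM in mitotic and 10.0 and 9.60 CPM in other DETCs and was seen before thinning in 90.1% and 93.5% of mitotic DETCs. Top2a, the enzyme that untangles DNA, was at 1373 and 1219 CPM against 20.8 and 24.3 CPM. The chromosomal passenger complex corrects the attachment of chromosomes to the spindle. Its kinase gene Aurkb was at 155 and 136 CPM in mitotic and 0.860 and 1.09 CPM in other DETCs. Birc5, which encodes survivin, was at 652 and 633 CPM against 2.27 and 3.02 CPM, and Cdca8, for borealin, at 386 and 410.3 CPM against 2.77 and 2.53 CPM. The kinetochore joins centromeres to microtubules. Cenpf, a kinetochore protein, was at 979 and 882 CPM in mitotic and 11.99 and 12.5 CPM in other DETCs. Cenpe, a kinetochore motor, was at 182 and 174 CPM against 2.83 and 2.38 CPM, and Cenpm, a centromere protein, at 204 and 177 CPM against 6.81 and 5.75 CPM. Ndc80 and Nuf2 encode partners in the complex that grips microtubules. They were at 76.5 and 85.8 CPM and 122 and 105 CPM in mitotic DETCs, and Knstrn, of kinetochores and spindle, at 135 and 108 CPM. Cenpa, the histone H3 variant of centromeres, was at 482 and 440.1 CPM in mitotic DETCs but at 133 and 105 CPM in the others.

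Checkpoint and anaphase genes time the parting of chromosomes. Ube2c, the ubiquitin-conjugating enzyme of the anaphase-promoting complex, was at 768 and 656 CPM in mitotic and 1.17 and 0.942 CPM in other DETCs, a difference of 657-fold and 696-fold. Of its DETC UMIs, 1.89% and 2.73% lay outside mitotic cells, so that nearly all of its RNA was in them. Cdc20, an activator of the same complex, was at 309 and 269 CPM against 3.81 and 3.67 CPM. The checkpoint genes Bub1 and Bub1b, which delay anaphase, were at 99.1 and 72.3 CPM and 93.4 and 95.5 CPM in mitotic DETCs and under 1 CPM in others. Spindle genes summed to 1562 and 1512 CPM in mitotic DETCs and 16.1 and 16.6 CPM in others. Hmmr, a spindle protein, was at 239.8 and 242 CPM in mitotic and 0.307 and 0.347 CPM in other DETCs. Nusap1, which binds spindle microtubules, was at 525 and 545 CPM against 2.95 and 2.28 CPM, and Tpx2, an activator of Aurora A, at 299 and 308 CPM against 3.87 and 3.77 CPM. Motor proteins give the spindle its shape. Kif11, which pushes the poles apart, was at 171 and 141 CPM in mitotic DETCs, the chromosome-bound Kif22 at 126 and 114 CPM, and Kif2c, which shortens microtubules, at 45.9 and 54.0 CPM. Ckap2, a microtubule protein, was at 156 and 109 CPM, with 7.13 and 7.34 CPM in the other DETCs. Midzone and cytokinesis genes finish division. Prc1, which bundles midzone microtubules, was at 679 and 636 CPM in mitotic and 20.1 and 21.7 CPM in other DETCs. Kif20a, a midzone motor, was at 50.6 and 43.4 CPM in mitotic DETCs, Anln, a scaffold of the contractile ring, at 66.5 and 72.3 CPM, and Ect2, an activator of RhoA, at 74.7 and 71.4 CPM. Kif23, the motor of centralspindlin, was at 312 and 250.2 CPM in mitotic and 65.7 and 76.8 CPM in other DETCs. Gene bodies of 7 members (Top2a, Nusap1, Kif11, Tpx2, Cks2, Ndc80 and Anln) overlapped another gene on the same strand, and those of 15 members one on the other strand. The origin of UMIs in the overlaps was not tested.

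**Figure D2:**
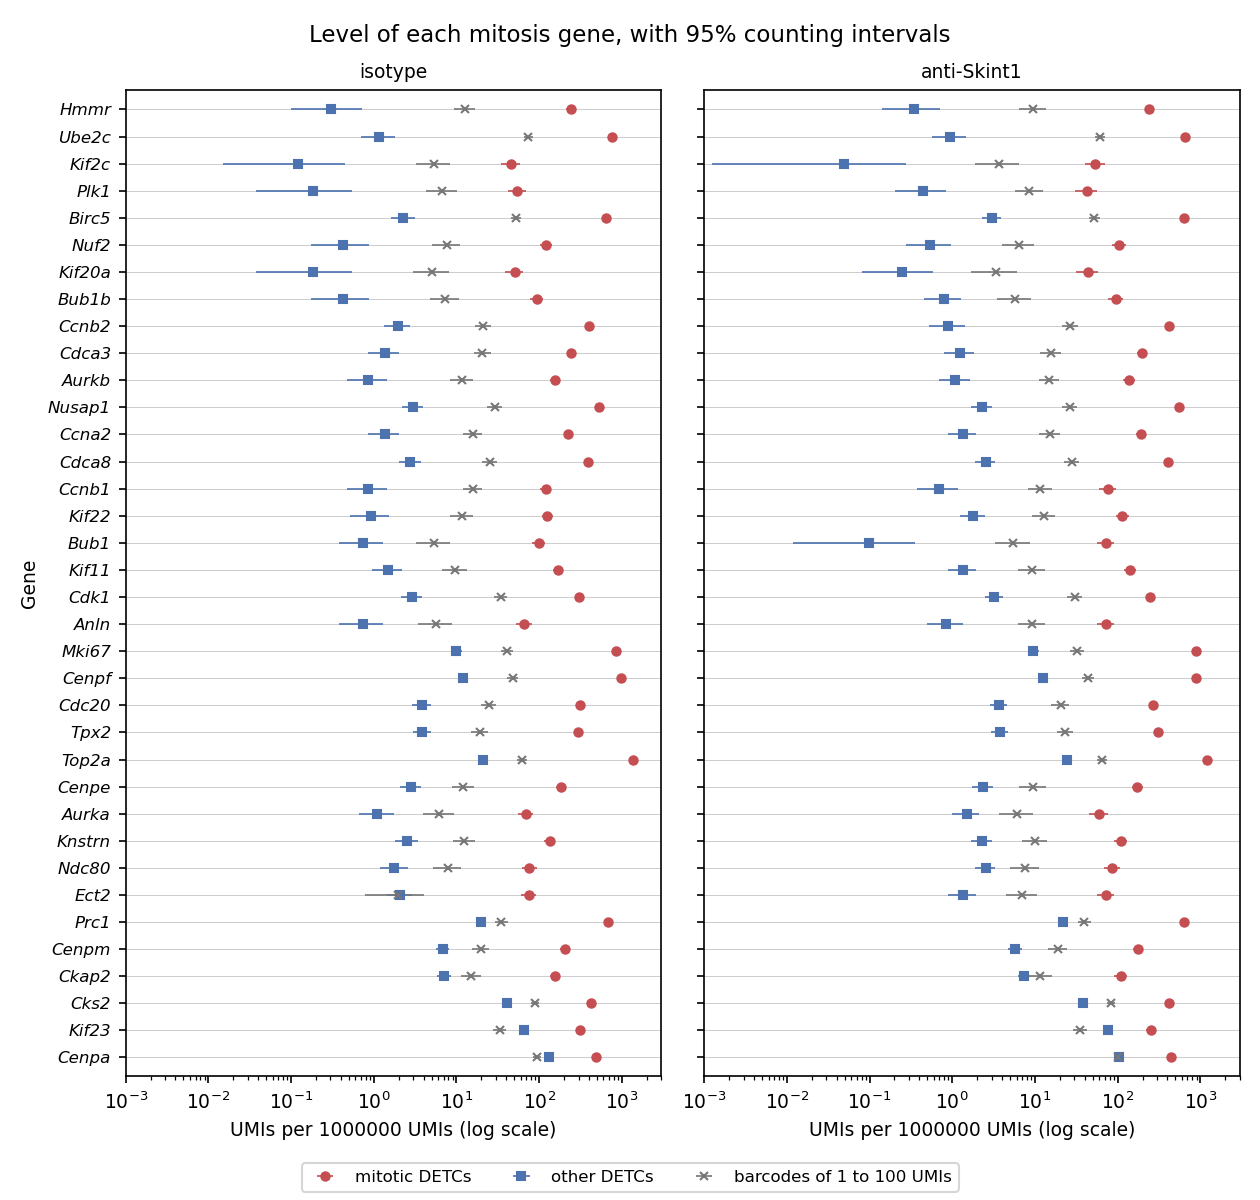
Level of each mitosis gene (CPM, log axis) in mitotic DETCs, other DETCs and barcodes of 1 to 100 UMIs, in both libraries. The genes are ordered by their fold of mitotic over other DETCs in the isotype library. Cenpa stands at 133 and 105 CPM and Kif23 at 65.7 and 76.8 CPM in other DETCs, whereas Ube2c stands at 1.17 and 0.942 CPM.

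Much of the RNA of Cenpa, Kif23 and Cks2 lay outside mitotic DETCs. Of the DETC UMIs of Cenpa (chr5:30666777-30674830 on GRCm38), 78.4% and 82.5% lay outside mitotic cells. For Kif23 (chr9:61915905-61946774) the shares were 73.4% and 85.7%, and for Cks2 (chr13:51645232-51650660) 55.2% and 64.8%. Ckap2 also passed 50% in the anti-Skint1 library, with 36.8% and 56.9%, and over the 36 genes the median share was 10.6% and 18.3%. The levels in barcodes of 1 to 100 UMIs were taken for the RNA that is free in the suspension. Cenpa was at 95.2 (85.3 to 106) and 99.8 (89.3 to 111) CPM there and at 133 (128 to 139) and 105 (101 to 109.8) CPM in other DETCs, higher in the isotype library but with overlapping intervals in the anti-Skint1 library. Kif23 was at 33.6 (27.8 to 40.2) and 35.1 (29.0 to 42.1) CPM there and at 65.7 (61.8 to 69.8) and 76.8 (73.0 to 80.7) CPM in other DETCs, higher in both libraries. Cks2 was lower in other DETCs than in those barcodes, at 41.0 and 38.5 CPM against 88.7 and 83.3 CPM, or 46.2% and 46.2%. The same share varied among genes at low levels in other DETCs. Cenpe, at 2.83 and 2.38 CPM in other DETCs, stood at 23.3% and 25.1%, and Aurka, at 1.11 and 1.49 CPM, at 17.8% and 24.4%. Ube2c in other DETCs stood at 1.59% and 1.55% of its 73.7 and 60.8 CPM in barcodes of 1 to 100 UMIs. The keratins (Dsp not counted) stood at 1.66% and 1.74% of theirs in other DETCs that were not keratin-rich, and with the 8 and 10 keratin-rich ones at 16.2% and 12.3%. Ect2 was at 1.98 (0.795 to 4.07) and 7.02 (4.45 to 10.5) CPM in barcodes of 1 to 100 UMIs and 2.09 (1.45 to 2.92) and 1.34 (0.883 to 1.95) CPM in other DETCs, with overlapping intervals in the isotype library, and the remaining genes were lower in other DETCs in both libraries, though with overlapping intervals for Ckap2 in the anti-Skint1 library. Between libraries, the levels of Cenpa and Kif23 in other DETCs went opposite ways. The log2 ratio there, anti-Skint1 over isotype, was −0.34 (−0.43 to −0.26) for Cenpa and 0.22 (0.11 to 0.34) for Kif23, and for Cks2 it was −0.09 (−0.24 to 0.06).

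Over all DETCs, most mitosis genes were lower in the anti-Skint1 library. In all, 17 of the 36 genes were over 1.5-fold lower, against 2.92% of all genes tested, and 0 were over 1.5-fold higher, against 2.0%. The members' share of lower genes was thus well above the background. Their median log2 ratio was −0.57, beside −0.03 over all genes tested. The log2 ratio was below 0 for 35 of the 36 genes, and its interval lay below 0 for 32 and held 0 for 4. The ratios were lowest for a checkpoint kinase and a cyclin. Bub1 was at 7.77 and 3.58 CPM over all DETCs, a log2 ratio of −1.12 (−1.54 to −0.71). Ccnb1 was at 9.46 and 4.37 CPM, a log2 ratio of −1.11 (−1.49 to −0.74). Cdca3 was at 19.0 and 10.6 CPM, a log2 ratio of −0.84 (−1.09 to −0.59). Each of these intervals lay below 0. Ube2c was at 56.6 and 32.4 CPM, with a log2 ratio of −0.80 (−0.95 to −0.66). Kif11 was at 13.7 and 8.09 CPM, with −0.76 (−1.05 to −0.47), and Plk1 at 4.11 and 2.46 CPM, with −0.74 (−1.28 to −0.21). The chromosome genes were lower by less than 1.5-fold. Mki67 was at 69.5 and 49.8 CPM, with a log2 ratio of −0.48 (−0.60 to −0.36), and Top2a at 113 and 79.0 CPM, with −0.51 (−0.61 to −0.42). Kif23 stood apart, at 83.1 and 85.7 CPM and a log2 ratio of 0.04 (−0.06 to 0.14). The intervals of Ndc80, Anln and Kif2c also held 0.

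By role, the summed level was lower in the anti-Skint1 library in each of the 7 roles. Checkpoint and anaphase genes had the lowest log2 ratio, −0.75 (−0.86 to −0.65), from 97.4 and 57.7 CPM. The passenger complex stood at −0.56 (−0.66 to −0.45), the cyclins, kinases and partners at −0.53 (−0.61 to −0.46), and spindle genes at −0.52 (−0.61 to −0.44). Mki67 and Top2a together stood at −0.50 (−0.58 to −0.43) and centromere and kinetochore genes at −0.48 (−0.53 to −0.42). Midzone and cytokinesis genes, which include Kif23, were nearest to 0, at −0.17 (−0.24 to −0.09). Over 1.5-fold lower were 6 of 8 cyclins, kinases and partners, 3 of 4 checkpoint and anaphase genes, 4 of 7 centromere and kinetochore genes, 2 of 5 midzone and cytokinesis genes, 1 of 3 passenger genes, 1 of 7 spindle genes and 0 of 2 chromosome genes, against 2.92% of all genes tested. The roles were not tested against each other.

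Mitotic DETCs were chosen by these same genes, so their levels in each library are a description, and a small difference between libraries there is not read as a result. The summed level was 11385 and 10509 CPM, a log2 ratio of −0.12 (−0.15 to −0.08), and in other DETCs it was 351 and 338 CPM, a log2 ratio of −0.06 (−0.11 to −0.00434). Just 1 of the 36 genes was over 1.5-fold lower in mitotic DETCs of the anti-Skint1 library, against 6.60% of all genes tested, and 0 were higher, against 4.29%. The median log2 ratio of the genes was −0.16. The gene past 1.5-fold was Ccnb1, at 119.9 and 76.2 CPM and a log2 ratio of −0.65 (−1.06 to −0.25). Ckap2 followed at −0.52 (−0.87 to −0.18) and Bub1 at −0.45 (−0.89 to −0.03). Intervals lay below 0 for 9 genes (Top2a, Cdk1, Ccnb1, Ube2c, Cenpf, Cdca3, Bub1, Kif23 and Ckap2), above 0 for 0 and held 0 for 27. In other DETCs, intervals lay below 0 for Ccnb2, Cenpa and Bub1, above 0 for Top2a, Kif22 and Kif23, and held 0 for 30 genes.

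**Figure D3:**
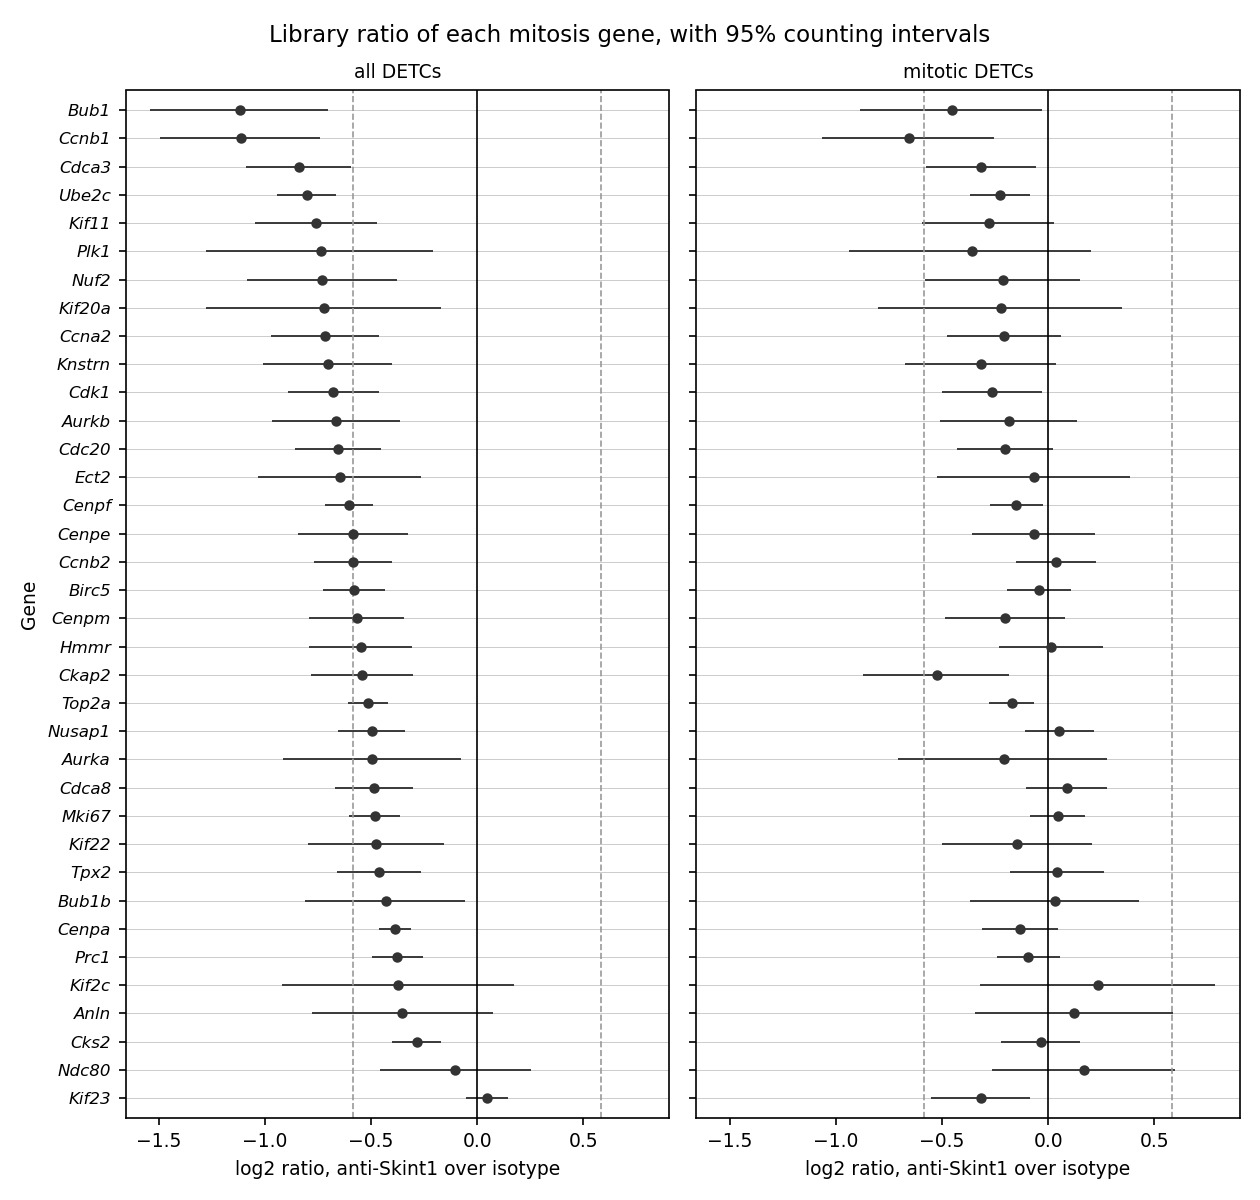
Log2 ratio of each mitosis gene, anti-Skint1 over isotype, in all DETCs and in mitotic DETCs, with 95% intervals and dashed lines at 1.5-fold. In all DETCs 17 genes lie below the lower line, and in mitotic DETCs 1 does.

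In αβ T cells, mitosis genes were again lower in the anti-Skint1 library, but a few cells carried them. There 25 of the 36 genes had at least 30 UMIs over both libraries, and as a description 17 of these were over 1.5-fold lower, against 9.89% of all genes tested, and 0 higher, against 4.92%. The share of lower members was thus above the background. Ube2c was at 114 and 25.1 CPM in αβ T cells, a log2 ratio of −2.18 (−2.87 to −1.55). Mki67 was at 198 and 75.3 CPM, a log2 ratio of −1.40 (−1.80 to −1.01). Cenpf was at 154 and 25.1 CPM, a log2 ratio of −2.62 (−3.29 to −2.01). These sums rested on few cells. The αβ T cell with most mitosis UMIs had 559 such UMIs, 28.2% of the class, in the isotype library and 108, or 10.3%, in the anti-Skint1 library, and the first 10 cells held 82.2% and 67.6%. Without those 10 cells of each library the log2 ratio was −0.11 (−0.33 to 0.11). With at least 2 UMIs of Trac and none of Trdc it was −0.25 (−0.43 to −0.08). With at most 2500 genes per barcode it turned to 0.22 (0.03 to 0.42).

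Set against DETCs of the same library, αβ T cells held more mitosis RNA. The log2 ratio of the summed level, αβ T over DETC, was 0.77 (0.70 to 0.84) and 0.34 (0.25 to 0.43). The median gene of the classes was itself shifted, by −0.13 and −0.19, and relative to it the summed ratios were 0.90 and 0.53. In the isotype library 24 of the 36 genes were over 1.5-fold higher in αβ T cells, against 13.6% of all genes tested, and 1, Aurka, was lower, against 29.1%. In the anti-Skint1 library 18 were higher, against 11.7%, and 4 (Cdc20, Cenpa, Cenpf and Kif2c) were lower, against 30.7%. In both libraries the share of higher members was above the background and the share of lower members below it. Without the 10 cells with most mitosis UMIs in each class the ratios were −1.29 and −0.93, but those cells held 15.0% and 15.3% of the mitosis UMIs of the far larger DETC class, so that no direction is read from this turn. With at most 2500 genes per barcode the ratios were 0.20 (0.05 to 0.35) and 0.60 (0.46 to 0.73).

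Under the ILC rule, the direction between libraries rested on few barcodes. As a description, 27 of the 36 genes had at least 30 UMIs, of which 12 were over 1.5-fold higher in the anti-Skint1 library, against 5.86% of all genes tested, and 1, Mki67, was lower, against 7.85%. The share of higher members was above the background. Cdk1 was at 13.0 and 38.8 CPM in barcodes of the ILC rule, a log2 ratio of 1.58 (0.87 to 2.35), and Mki67 at 55.3 and 31.8 CPM, a log2 ratio of −0.80 (−1.25 to −0.34). Keratin-rich barcodes held 54.8% and 95.3% of the mitosis UMIs of the rule. Without them the summed level was 892 and 159 CPM, and the log2 ratio turned from 0.40 to −2.49 (−2.82 to −2.17). Of the 428 mitosis UMIs then left in the isotype library, 210 and 140 lay in 2 of 88 barcodes, so that this value also rested on few cells. At most 2500 genes per barcode also turned it, to −0.61 (−1.09 to −0.12). Against DETCs, the rule's barcodes stood at log2 ratios of −0.90 (−0.997 to −0.807) and −0.03 (−0.10 to 0.03). The median gene was shifted by −0.53 and −0.56, and relative to it the ratios were −0.37 and 0.53, so that the sign in the anti-Skint1 library depended on the scaling. Without keratin-rich barcodes they were −0.35 and −2.37, and with at most 2500 genes per barcode −1.23 and −1.67. As UMIs per barcode in place of CPM they turned to 0.42 and 1.48. Of the 36 genes, 2 (Anln and Ccnb1) were higher and 23 lower in the isotype library, against 18.1% and 42.4% of all genes tested. In the anti-Skint1 library 13 were higher and 5 (Bub1b, Cenpa, Kif23, Mki67 and Ndc80) lower, against 19.1% and 43.0%. Among the isotype barcodes the share of lower members was above the background, and in the anti-Skint1 library the share of higher members was.

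The limit of 2500 genes per barcode in the study's methods removed much of the mitosis RNA. Among DETCs, barcodes above the limit held 69.2% (68.5 to 69.8%) and 59.9% (59.2 to 60.6%) of mitosis UMIs, but 17.4% and 13.0% of all UMIs. Of the mitotic DETCs, 99 of 148 and 76 of 114 lay above the limit. Mitotic DETCs showed a median of 2811 and 2868 genes before thinning, and other DETCs 1651 and 1507. In barcodes of up to 1000 genes 1 of 19 and 0 of 29 were mitotic, in those of over 1000 and up to 1500 genes 12 of 1123 (1.07%) and 4 of 2378 (0.168%), and in those of over 1500 and up to 2000 genes 10 of 1749 (0.572%) and 12 of 1845 (0.650%). Up to 2000 genes the shares were thus lower with more genes in the isotype library and higher with more genes in the anti-Skint1 library, on few mitotic cells. In barcodes of over 2000 and up to 2500 genes 26 of 519 (5.01%) and 22 of 491 (4.48%) were mitotic, and in those of over 2500 and up to 3000 genes 41 of 187 (21.9%) and 31 of 196 (15.8%). In those of over 3000 and up to 3500 genes 38 of 88 and 33 of 66 were, and above 3500 genes 20 of 37 and 12 of 25. Above 2000 genes the shares were higher than in barcodes of over 1000 and up to 2000 genes, although each cell had been thinned to the same depth. Barcodes above the limit also differed in other ways. Marked as likely doublets by the assumed rate were 10.6% and 20.6% of DETCs above it, and 9 of 9 and 10 of 12 keratin-rich DETCs lay there. The 6 keratinocyte markers summed to 942 and 1407 CPM above and 31.9 and 42.7 CPM at or below the limit, with Krt14 the most abundant above it. Without the marked doublets, 69.5% and 59.8% of DETC mitosis UMIs lay above the limit, and without keratin-rich barcodes 68.7% and 59.1%. By gene, all 36 were over 1.5-fold higher above the limit, in the isotype library against 13.2% of all genes tested and in the anti-Skint1 library against 13.5%, and 0 were lower, against 7.22% and 7.35%, so that the members stood far above the background. The share of a gene's DETC UMIs above the limit ran from 27.7% to 92.3% in the isotype library, with a median of 82.5%, and from 18.4% to 93.0% in the anti-Skint1 library, with a median of 77.9%. Hmmr lost most in the isotype library, with 92.3% and 90.0% above the limit. Kif2c lost most in the anti-Skint1 library, with 91.8% and 93.0%. Cenpa and Kif23 lost least, with 27.7% and 21.5% and 32.2% and 18.4%.

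**Figure D4:**
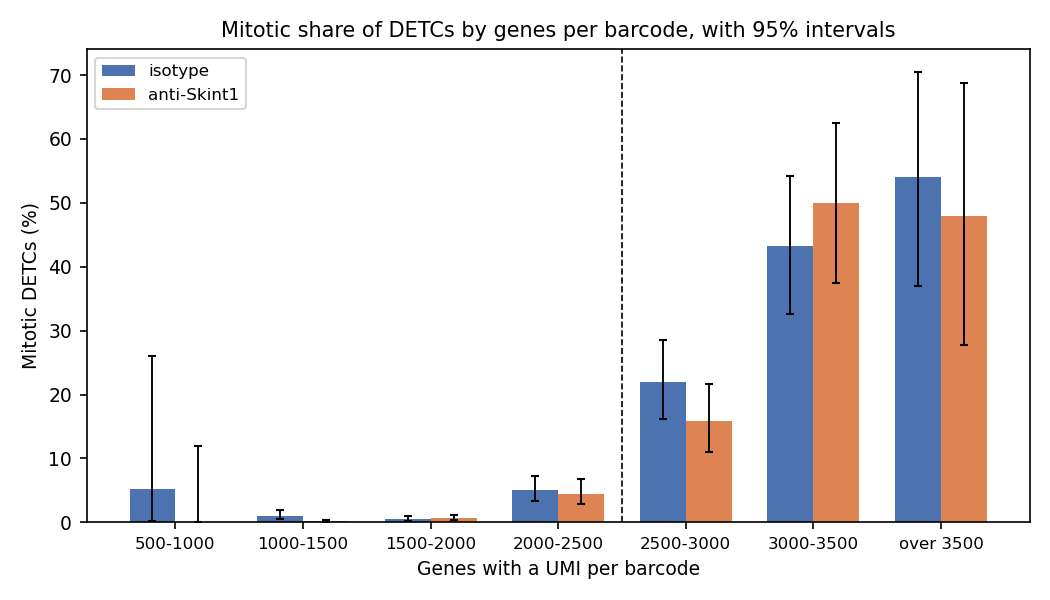
Share of mitotic cells (%) among DETCs of each library by genes per barcode, as bars with 95% Clopper-Pearson intervals, with a dashed line at 2500 genes. Above the line 31.7% of DETCs of the isotype library and 26.5% of those of the anti-Skint1 library were mitotic, and at or below it 1.44% and 0.801%.

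With the limit in force, the difference between libraries in DETCs was smaller. The summed level was 429 and 382 CPM, a log2 ratio of −0.17 (−0.22 to −0.12), and the mitotic share differed by −0.636 points (−1.14 to −0.178). Then 33 of the 36 genes had at least 30 UMIs (Kif20a, Kif2c and Plk1 did not). As a description, 8 of these (Aurkb, Bub1, Ccnb1, Ccnb2, Cenpe, Ect2, Tpx2 and Ube2c) were over 1.5-fold lower, against 2.27% of all genes tested, and 0 higher, against 2.06%. The share of lower members stayed above the background. Above the limit the summed level was 4556 and 3812 CPM, a log2 ratio of −0.26 (−0.29 to −0.22). The mitotic share there differed by −5.25 points (−12.4 to 2.05), an interval that held 0. In αβ T cells barcodes above the limit held 80.0% and 53.7% of mitosis UMIs, and under the ILC rule 92.6% and 96.2%.

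Other genes of mitosis, from a list of 39, were also lower in DETCs of the anti-Skint1 library. Within the limit of 2500 genes their median log2 ratio lay nearer to 0 than that of the members. The lists of genes were not tested against each other. These 39 genes summed to 13391 and 13112 CPM in mitotic and 1010.5 and 987 CPM in other DETCs. Over all DETCs their log2 ratio, anti-Skint1 over isotype, was below 0 for 39 of 39, with a median of −0.38, and 10 were over 1.5-fold lower, against 2.92% of all genes tested. With at most 2500 genes per barcode 0 of 34 were over 1.5-fold lower, against 2.27% of all genes tested, and 1, Ttk, a checkpoint kinase gene, was higher, against 2.06%, both near the background, with a median log2 ratio of −0.08 beside −0.28 for the members. Sgo2a, which protects cohesion at centromeres, was at 11.9 and 5.91 CPM over all DETCs, a log2 ratio of −1.02 (−1.34 to −0.69). Spc25, a partner of Ndc80 and Nuf2, was at 18.1 and 10.7 CPM, a log2 ratio of −0.76 (−1.01 to −0.51). Genes that copy DNA were also high in mitotic DETCs. The 29 replication genes summed to 4731 and 4756 CPM in mitotic and 748 and 750.5 CPM in other DETCs, and 66.9% and 69.3% of mitotic DETCs showed at least 4 of them after thinning, against 4.84% and 4.98% of others. Over all DETCs the median log2 ratio of the replication genes was −0.17, beside −0.57 for the 36 members, a difference that was not tested. Of the 29 replication genes 1, Ccne1, was over 1.5-fold lower, near the 2.92% of all genes tested. The cyclin E1 gene Ccne1 was at 3.89 and 2.56 CPM, a log2 ratio of −0.60 (−1.14 to −0.07).

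A list of mitotic transcription held transcription factors and other subunits of the MuvB and DREAM complexes. Of its 12 genes, 2 were over 1.5-fold lower in DETCs of the anti-Skint1 library, against 2.92% of all genes tested. The median log2 ratio of the 12 was −0.09. Foxm1, an activator of mitosis genes, was at 5.69 and 3.16 CPM, a log2 ratio of −0.85 (−1.31 to −0.39). Mybl2, which encodes B-Myb, was at 2.76 and 1.81 CPM, and its log2 ratio of −0.61 (−1.25 to 0.03) had an interval that held 0. Both stood higher in mitotic cells. Mybl2 was at 24.1 and 28.0 CPM in mitotic and 1.11 and 0.496 CPM in other DETCs, and Foxm1 was at 60.0 and 51.1 CPM in mitotic and 1.48 and 0.744 CPM in other DETCs. Of the inhibitors of Cdk kinases, 0 of 6 measured were over 1.5-fold lower or higher between libraries, and of 10 genes of entry into the cell cycle, 0. Of all genes tested 2.92% were lower and 2.0% higher, so that both counts were near the background and nothing is read from them. In mitotic over other DETCs, 5 of the 10 (Cdk2, Cdk4, E2f1, E2f2 and E2f3) were over 1.5-fold higher in both libraries, against 18.9% and 19.0% of all genes tested, and 2 and 3 were lower, against 21.1% and 22.3%. Among the lower, Ccnd2, the cyclin D2 gene that acts at entry, stood at 309 and 339 CPM in mitotic and 1138 and 1182 CPM in other DETCs. Genes of DETC effector function and activation were mostly lower in mitotic DETCs, where 7 and 10 of 11 were over 1.5-fold lower, against 21.1% and 22.3% of all genes tested. In the isotype library Il2ra, for an IL-2 receptor chain, went the other way, with a log2 ratio of mitotic over other DETCs of 0.96 (−0.16 to 1.93), as did the granzyme gene Gzmb, with 0.22 (−0.01 to 0.44). In the anti-Skint1 library the chemokine gene Xcl1 did, with 0.45 (0.20 to 0.70). Some genes counted as lower rested on few UMIs. In mitotic DETCs Ifng, which encodes interferon γ, had 2 and 0 UMIs, and Il2ra had 1 in the anti-Skint1 library. The intervals of these ratios held 0. Areg, which encodes the growth factor amphiregulin, was at 152 and 160.1 CPM in mitotic and 589 and 550.1 CPM in other DETCs. Between libraries 5 of these 11 genes were over 1.5-fold lower in all DETCs of the anti-Skint1 library, against 2.92% of all genes tested. The study had reported lower Xcl1 and Gzmc from these same data, and the list was chosen with earlier results known. Nothing is therefore read from this count. Xcl1 was at 292 and 98.8 CPM, a log2 ratio of −1.56 (−1.64 to −1.49). Of the receptor chains for IL-2 and IL-15, 0 of 3 were lower and 1, Il15ra, was higher, at 0.845 and 1.40 CPM with a log2 ratio of 0.72 (−0.22 to 1.72), whose interval held 0, where 2.0% of all genes tested were higher.

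Outside all lists, the 10 genes with the highest ratio of mitotic over other DETCs were Pimreg, Cdkn3, Depdc1a, Sapcd2, Hist1h1b, Esco2, Hist1h3c, Neil3, Aspm and Knl1. Pimreg was at 175 and 125 CPM in mitotic and 0.369 and 0.248 CPM in other DETCs. Aspm, a protein of spindle poles, was at 144 and 117 CPM against 0.677 and 1.19 CPM. Knl1, a kinetochore scaffold that binds Bub1, was at 227 and 206 CPM against 2.15 and 2.13 CPM. Hist1h1b and Hist1h3c encode histones made while DNA is copied. Hist1h1b was at 336 and 372 CPM in mitotic and 2.34 and 2.78 CPM in other DETCs. The 10 genes with the lowest ratio were Rrad, Pik3ip1, Kdm5b, Hilpda, Nabp1, Sdc4, Snx29, Hopx, Prf1 and Hist3h2a. Pik3ip1, an inhibitor of PI3 kinase, was at 24.9 and 22.2 CPM in mitotic and 97.4 and 103 CPM in other DETCs. Prf1, which encodes the pore-forming protein perforin, was at 207 and 206 CPM against 629 and 621 CPM.

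Promoters of the mitosis genes shared short sequence motifs that the list of genes did not use. Promoter sequences of 300 bases, from 250 before to 50 after the gene start, came from RefSeq on GRCm38.p6, and 32 of the 36 genes had at least 1 (Ccna2, Aurkb, Kif20a and Tpx2 did not). The cell cycle genes homology region (CHR) was searched as TTTGAA or TTCGAA on both strands, so that TTCAAA also counted, and TTCGAA reads the same on both. It was held by 25 of the 32 genes (78.1%) and by 6316 of 32851 promoters of the whole table (19.2%). The letters CCAAT, or ATTGG on the other strand, were held by 25 genes (78.1%) and by 37.4% of all promoters. Both motifs were held by 22 genes (68.8%) against 7.53%, and at least 2 CCAAT by 18 genes (56.2%) against 11.7%. A match is a description of the letters, not a bound site. Both Cenpa and Kif23, with most of their UMIs outside mitotic DETCs, held both motifs, whereas Cks2 held CCAAT without CHR and Birc5 held neither.

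Promoters of Ube2c and Ccnb2 are shown as genes nearly silent outside mitotic DETCs that held both motifs, Birc5 as such a gene with neither, and Cenpa, Kif23 and Cks2 as the genes with most UMIs outside mitotic DETCs. Sequences run 5′ to 3′ on the strand of the gene, from RefSeq on GRCm38.p6, and capitals mark CHR and CCAAT matches on either strand. Ube2c lay at chr2:164769679-164769978 on the + strand, with 6 CCAAT matches, of which a CCAAT and an ATTGG share the letters AT, and a CHR match 29 bases before the start. Ccnb2 lay at chr9:70421505-70421804 on the − strand with 3 CCAAT and 2 CHR matches. Birc5 lay at chr11:117848987-117849286 on the + strand. Cenpa lay at chr5:30666636-30666935 on the + strand with 2 CCAAT and 1 CHR match. Kif23 lay at chr9:61946750-61947049 on the − strand with 1 match of each. Cks2 lay at chr13:51644982-51645281 on the + strand with 4 CCAAT matches. 
Ube2c: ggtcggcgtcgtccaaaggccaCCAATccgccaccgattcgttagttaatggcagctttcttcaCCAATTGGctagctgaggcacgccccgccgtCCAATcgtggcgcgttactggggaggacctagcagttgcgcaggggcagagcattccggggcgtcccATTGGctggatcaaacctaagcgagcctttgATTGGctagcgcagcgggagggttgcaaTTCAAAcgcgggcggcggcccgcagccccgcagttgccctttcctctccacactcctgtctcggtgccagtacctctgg
Ccnb2: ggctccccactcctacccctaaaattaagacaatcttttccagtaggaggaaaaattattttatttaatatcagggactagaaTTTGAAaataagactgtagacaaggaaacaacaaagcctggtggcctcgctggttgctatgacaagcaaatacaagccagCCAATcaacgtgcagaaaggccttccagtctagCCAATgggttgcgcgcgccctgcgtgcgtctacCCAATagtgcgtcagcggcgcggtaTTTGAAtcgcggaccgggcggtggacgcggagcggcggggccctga
Birc5: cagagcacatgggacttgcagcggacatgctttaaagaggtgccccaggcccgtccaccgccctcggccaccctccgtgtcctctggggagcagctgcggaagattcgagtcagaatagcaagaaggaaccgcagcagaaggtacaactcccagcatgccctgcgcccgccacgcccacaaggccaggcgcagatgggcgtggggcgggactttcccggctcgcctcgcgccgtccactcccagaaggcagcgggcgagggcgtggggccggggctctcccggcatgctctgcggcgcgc
Cenpa: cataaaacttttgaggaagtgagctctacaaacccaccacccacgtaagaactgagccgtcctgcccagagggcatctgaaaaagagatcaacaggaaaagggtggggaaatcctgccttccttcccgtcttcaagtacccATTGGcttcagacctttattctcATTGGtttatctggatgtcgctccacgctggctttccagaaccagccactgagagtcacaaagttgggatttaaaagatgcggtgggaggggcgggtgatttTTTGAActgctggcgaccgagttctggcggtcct
Kif23: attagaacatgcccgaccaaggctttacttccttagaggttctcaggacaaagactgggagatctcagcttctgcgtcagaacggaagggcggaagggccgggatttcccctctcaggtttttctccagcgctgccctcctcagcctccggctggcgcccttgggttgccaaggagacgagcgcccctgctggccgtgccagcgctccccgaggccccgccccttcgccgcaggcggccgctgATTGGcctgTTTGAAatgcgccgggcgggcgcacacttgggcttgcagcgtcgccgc
Cks2: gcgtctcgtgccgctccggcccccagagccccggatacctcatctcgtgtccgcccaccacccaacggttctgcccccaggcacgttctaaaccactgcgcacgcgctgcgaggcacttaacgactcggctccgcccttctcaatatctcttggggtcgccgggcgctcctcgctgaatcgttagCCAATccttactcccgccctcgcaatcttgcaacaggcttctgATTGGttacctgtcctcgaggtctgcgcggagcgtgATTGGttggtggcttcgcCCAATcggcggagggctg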

How the data were processed

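The authors deposited raw UMI counts per gene and barcode, made with CellRanger 3.0.2 against mm10 (GRCm38), for every barcode without a cell filter. Counts were summed per class and library and divided by the total UMIs of the class (CPM), and log2 ratios were taken without a pseudocount. Each treatment had 1 library, so no test between treatments was made. Genes were counted past 1.5-fold where at least 30 UMIs were found over the groups compared. Random thinning used seed 11. Scrublet (scanpy 1.11.5) gave doublet scores, the highest of which were marked as likely doublets, 0.8% per 1000 barcodes. Computations used Python 3.11.15, numpy 2.4.6, scipy 1.17.1, pandas 2.3.3 and matplotlib 3.10.9. Ratios and intervals were checked on simulated counts that held counting error alone. The check does not cover the concentration of mitosis UMIs in few cells. Positions are those of GENCODE on GRCm38. The members and lists were chosen with earlier results of these data known. Genes named are the 36 members, genes of the fixed lists and markers, and the 10 highest and 10 lowest other genes by the ratio of mitotic over other DETCs (at least 50 CPM in the higher group of each library). Alternatives changed the filters, classes, genes summed, scaling and thinning.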

Additional observations from a re-analysis of the deposited data

Results flagged for a closer look

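Barcodes of the ILC rule and DETCs differed in opposite directions between libraries. The log2 ratio of the summed mitosis CPM, anti-Skint1 over isotype, was 0.40 under the ILC rule and −0.47 in DETCs. With 1 library per treatment, the difference between the classes was not tested. The ratio under the ILC rule turned to the direction seen in DETCs without keratin-rich barcodes, at −2.49, and with at most 2500 genes per barcode, at −0.61.

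Mitosis RNA was also measured in barcodes outside the named classes. Barcodes of 1 to 100 UMIs, which hold free RNA, stood at 899 CPM (868 to 931) in the isotype library and 869.7 CPM (838 to 902) in the anti-Skint1 library. Cells of no class stood at 1087 and 832 CPM.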

How the results depend on the processing

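Over all results and alternatives 250 values were computed, of which 169 stayed within the 95% interval of the reported value, 75 moved past it and 6 turned their direction with an interval clear of 0. The cause was not tested for any of these. Log2 ratios are given first, then shares, with the isotype library first in each pair. The DETC ratio ran from −0.64 to −0.17, below 0 under all 14 of its alternatives.

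With at most 2500 genes per barcode, the ratio of anti-Skint1 over isotype was −0.17 in DETCs and turned to 0.22 in αβ T cells and −0.61 under the ILC rule. αβ T over DETC was 0.20 and 0.60, and ILC rule over DETC −1.23 and −1.67. The mitotic share of DETCs was 1.44% and 0.801% (difference −0.636 points), of anti-Skint1 αβ T cells 3.57% and under the ILC rule 1.30% and 0%, which allows up to 2.68%.

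With at most 5% mitochondrial UMIs the ratio was −1.17 in αβ T cells and 0.61 under the ILC rule. αβ T over DETC was 0.12 in the anti-Skint1 library, and ILC rule over DETC −1.35 and −0.25. Mitotic shares were 6.52% and 4.18% of DETCs and 8.75% of anti-Skint1 barcodes of the ILC rule. Shares of mitosis UMIs above 2500 genes were 81.7% and 72.5% in DETCs, 89.5% and 57.0% in αβ T cells, and 98.9% and 99.4% under the ILC rule.

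As UMIs per cell, the ratio was −0.64 in DETCs and −1.02 in αβ T cells, and ILC rule over DETC turned to 0.42 in the isotype library and was 1.48 in the anti-Skint1 library. With the median gene set to a ratio of 1, the ratio was −0.44 in DETCs, αβ T over DETC 0.90 and 0.53, and ILC rule over DETC −0.37 and 0.53. A looser DETC rule gave a ratio of −0.43 and 60.9% of anti-Skint1 DETC mitosis UMIs above the limit, and Trdv4 as a further demand gave 70.5% in the isotype library. A stricter αβ T rule gave a ratio of −0.25, αβ T over DETC of 0.48 and 0.70, and 69.3% and 59.2% of αβ T mitosis UMIs above the limit.

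Without the 10 cells with most mitosis UMIs of each class, which took a far larger part of the small classes, the ratio was −0.11 in αβ T cells, αβ T over DETC turned to −1.29 and −0.93, and ILC rule over DETC was −3.40 and −2.62. Without Mki67 and Top2a, αβ T over DETC was 0.66 and 0.19. With free RNA subtracted, scaled by the keratin RNA of each class, it was 0.98 and 0.57. That subtraction gave no value for the results of the ILC rule. It kept keratin-rich barcodes in, which were 9 and 12 DETCs and 0 and 0 αβ T cells. In DETCs not called mitotic, keratins (Dsp not counted) stood at 16.2% and 12.3% of their level in free RNA with such barcodes. Without them the keratins stood at 1.66% and 1.74%. The rise from 0.77 and 0.34 was not tested without keratin-rich barcodes.

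The next alternatives were chosen after seeing the data. Without Cenpa, Kif23 and Cks2 the ratio was −0.57 in DETCs and 0.51 under the ILC rule, αβ T over DETC 0.97 and 0.58, and ILC rule over DETC −0.77 and 0.31. Without keratin-rich barcodes the ratio under the ILC rule turned to −2.49, ILC rule over DETC was −0.35 and −2.37, the anti-Skint1 mitotic share under the rule 0.775%, and the shares above the limit 59.1% in anti-Skint1 DETCs and 83.6% and 22.2% under the rule.

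Mitotic shares also moved with the thinning. Without thinning they were 6.74% and 4.24% of DETCs (difference −2.50 points) and 10.0% of anti-Skint1 barcodes of the ILC rule. At 1000 UMIs they were 3.04% and 1.74% of DETCs and 3.51% of anti-Skint1 αβ T cells, and at 3000 UMIs 4.85% and 3.71% of DETCs. With at least 3 genes they were 5.40% and 3.62%, and with at least 6 genes 3.17% and 1.79%. With classes set on the thinned UMIs, 1.03% and 0% were mitotic under the ILC rule, the latter allowing up to 2.48%.

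By result, those that stayed were 9 of 14 for the ratio in DETCs, 9 of 14 in αβ T cells and 8 of 12 under the ILC rule, 14 of 16 for the difference in mitotic share, and all 16 for the isotype αβ T share.

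Few cells limit the αβ T and ILC rule shares, which rest on 17 and 14 and on 6 and 9 mitotic barcodes. Cells of one library are not replicates of a treatment.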
